A study of Mus musculus with 13 samples.

Results

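The fatty acid oxidation genes examined here were Cpt1a, Cpt2, Acadm, Acadl, Acadvl, Hadha, Hadhb, Ehhadh and Ppargc1a, 9 of the 55450 genes in the mouse annotation GENCODE M21. They were chosen by name, with earlier results of these data known, so counts of members against all genes are given as a description. Their open chromatin was read from every snATAC-seq peak on the mm10 genome that overlapped the gene body or the 2 kb before it, which gave 87 of the 300755 peaks deposited. Of these, 11 covered the first base of an annotated transcript of the gene and are called start-site peaks, and the other 76 lay elsewhere in the genes, mostly in introns. The peaks were spread unevenly: Ppargc1a had 23, Cpt1a 19, Acadl 11, Hadha 8, Hadhb, Ehhadh and Acadm 7 each, Cpt2 5 and Acadvl 1, with 1 start-site peak shared by Hadha and Hadhb.

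Cells burn long-chain fatty acids in mitochondria by beta oxidation. CPT1A, the gatekeeper at the outer membrane, joins the fatty acid to carnitine, and CPT2 on the inner membrane gives the acyl-CoA back. ACADVL, ACADL and ACADM carry out the first dehydrogenation on very long, long and medium chains, and HADHA and HADHB form the trifunctional protein that carries out the later steps on long chains. EHHADH is the bifunctional enzyme of the peroxisome, where very long and dicarboxylic chains are shortened. Ppargc1a encodes PGC-1α, a coactivator of the PPAR and ERR nuclear receptors that switch these genes on. Proximal tubule cells and the thick ascending limb hold many mitochondria, and the proximal tubule relies on fatty acids as fuel.

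Nuclei of whole mouse kidneys were profiled with the 10x Chromium single-cell ATAC assay in 2 samples labelled P0, which the protocol describes as from 1-day-old mice, and in 3 adult samples, of which adult sample 1 was P21 and adult samples 2 and 3 were P56. Both kidneys were taken, adult mice were perfused first, and no sample carried a genetic change or a treatment that the labels name; the strain of these mice is not stated in the labels. The labels do not tell whether 2 samples of an age came from separate animals, so p-values measure the spread between these samples only.

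The 5 samples held 28316 nuclei, of which 27652 lay in the 13 main clusters as the authors named them and 664 did not. The samples held 3361 to 7129 nuclei and 16980853 to 43794155 open calls each, an open call being 1 nucleus with at least 1 fragment in 1 peak, and a median nucleus had from 3371 to 6737 open peaks. Of 27834 barcodes, 477 (1.714%) occurred in more than 1 sample. A check of 20 marker genes found 19 with the highest CPM (counts-per-million, of open calls in a sample and cluster) in the cluster named for them, and the remaining one, Cited1, a nephron progenitor gene, stood at 17.2 CPM in podocytes and 16.2 in nephron progenitors. The 2 proximal tubule clusters, the convoluted tubule (PCT) and the straight tubule (PST), held 547 and 557 and 83 and 112 nuclei in the P0 samples and 1551 to 2459 and 266 to 825 nuclei in the adult samples. The loop of Henle cluster held 635 and 652 nuclei at P0 and 394 to 1042 in the adult.

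The sequences that matter most for what follows are 4 stretches inside peaks that were open mainly in the proximal tubule, and 1 inside the Cpt1a peak with the largest rise between P0 and adult in the loop of Henle. Each is the central 200 bases of its peak in mm10, read 5′ to 3′ on the + strand. The label exon means that the whole peak overlaps an annotated exon, and whether the printed bases lie in that exon was not tested. Capitals mark the sequence TGACCT, which is the nuclear receptor hexamer AGGTCA on the − strand; the other stretches hold no such hexamer.
Acadl intron (chr1:66832509-66832708): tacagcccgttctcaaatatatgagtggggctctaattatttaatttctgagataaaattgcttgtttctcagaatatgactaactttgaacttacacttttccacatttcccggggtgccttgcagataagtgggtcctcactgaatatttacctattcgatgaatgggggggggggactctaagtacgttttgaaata
Acadm internal start (chr3:153937931-153938130): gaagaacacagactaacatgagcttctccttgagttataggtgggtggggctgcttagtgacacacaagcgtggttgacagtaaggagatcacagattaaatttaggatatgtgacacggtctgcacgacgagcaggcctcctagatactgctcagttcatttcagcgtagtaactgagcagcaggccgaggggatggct
Cpt2 intron (chr4:107922203-107922402): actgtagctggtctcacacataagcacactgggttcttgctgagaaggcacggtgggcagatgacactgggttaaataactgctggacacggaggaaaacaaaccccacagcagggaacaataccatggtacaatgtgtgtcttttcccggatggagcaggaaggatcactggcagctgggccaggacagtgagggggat
Ppargc1a intron (chr5:51528222-51528421): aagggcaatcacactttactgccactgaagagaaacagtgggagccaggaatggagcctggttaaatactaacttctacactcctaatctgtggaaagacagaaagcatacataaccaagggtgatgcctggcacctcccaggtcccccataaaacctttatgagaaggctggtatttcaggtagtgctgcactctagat
Cpt1a exon (chr19:3356722-3356921): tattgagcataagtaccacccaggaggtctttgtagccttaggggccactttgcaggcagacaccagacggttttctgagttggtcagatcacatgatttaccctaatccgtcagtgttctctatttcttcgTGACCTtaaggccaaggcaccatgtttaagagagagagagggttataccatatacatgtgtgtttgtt
The central 300 bases of all 87 peaks were searched on both strands for AGGTCA, for 2 copies of AGGTCA in a row with 1 base between them, for TCAAGGTCA, a site for ERR receptors that contains AGGTCA, and for CAAAGTCCA, a site for HNF4. AGGTCA stood in 21 of 87 (24.138%) against 21.143% of all peaks, the spaced pair in 0 against 0.069%, TCAAGGTCA in 1 (1.149%), in an intron of Cpt1a at chr19:3368717-3368725, against 0.853%, and CAAAGTCCA in 1 (1.149%), in the start-site peak of Ehhadh at chr16:21788237-21788245, against 0.809%. Only 2 of the 11 start-site peaks, that of Acadvl and that shared by Hadha and Hadhb, held AGGTCA. The members' peaks held these letters about as often as peaks elsewhere.

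**Figure D1:**
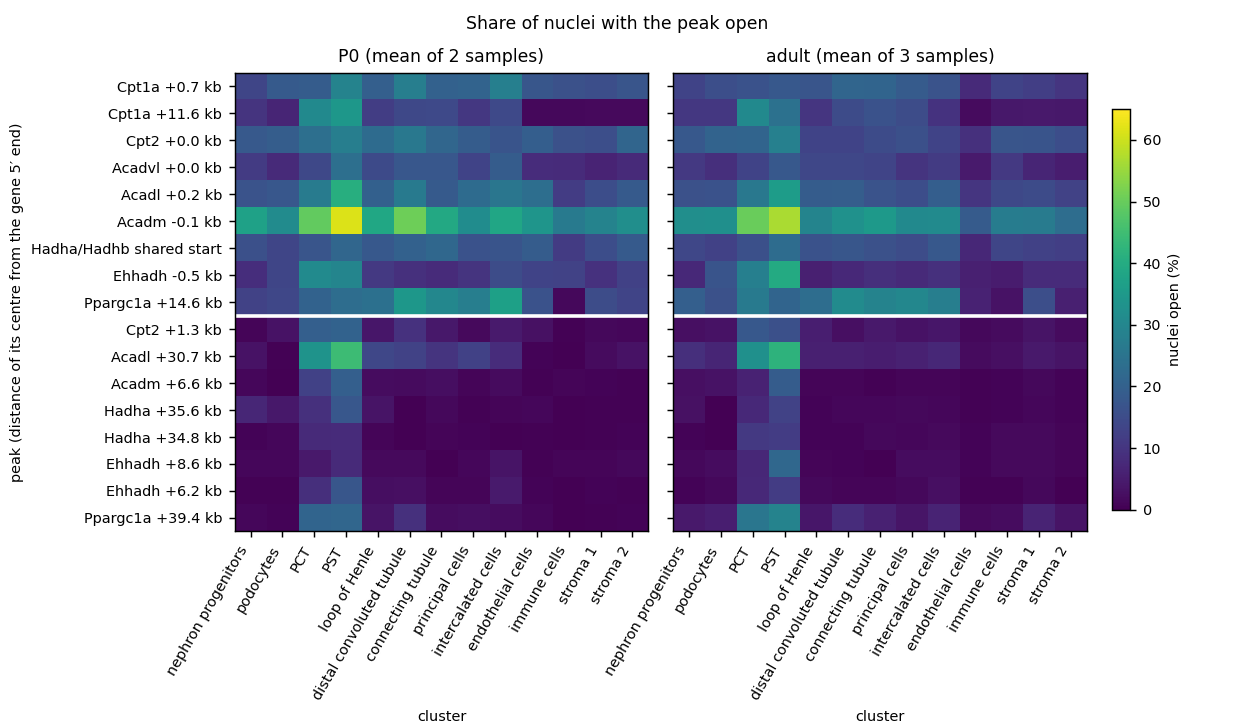
Mean share of nuclei with a peak open (percent, color) for 9 start-site peaks (above the white line) and 8 peaks open mainly in the proximal tubule (below it) in the 13 clusters, at P0 (2 samples) and in the adult (3 samples); a row name gives the gene and the distance of the peak's center from its 5′ end. Start-site peaks are open in most clusters, most of all that of Acadm, though the downstream one of Cpt1a is low in endothelial cells. The lower peaks are brightest in PCT and PST.

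At 7 of the 11 start-site peaks the mean proximal share stood at 0.99 to 2.00 times the mean of the other 11 clusters over the 5 samples. It stood at 2.49 to 5.01 times at the start of Ehhadh, at 2.69 to 4.85 times at the downstream start of Cpt1a, and at 8.68 to 16.9 and 7.35 to 39.5 times at internal starts of Acadm and Hadha, which are taken up with the proximal peaks. At the Hadha one the other clusters had few open nuclei, so its ratio is loosely set. The main start of Acadm, which oxidizes medium chains, was open in more nuclei than any other member peak, though peaks differ in width and a wide one catches more fragments. In PCT it was open in 50.8% and 47.9% of P0 nuclei and in 53.3%, 28.6% and 68.2% of adult nuclei, and in PST in 57.8% and 65.2% against 57.1%, 35.0% and 78.2%. The adult values spanned the P0 values in both clusters, and the lowest came from adult sample 2, which over all its nuclei had the fewest open peaks per nucleus. In endothelial cells the same peak was open in 33.4% and 34.5% of P0 nuclei and in 20.8%, 15.3% and 20.2% of adult nuclei, and nuclei of that cluster were shallower in the adult, with medians of 2099 to 2441.5 open peaks against 6508.5 and 7195.5 at P0. Scaled for depth, its change there was 0.50 and was not called.

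Other start-site peaks followed at lower levels. In PCT, the start of Acadl was open in 29.4% and 24.6% of P0 nuclei and in 25.3%, 15.4% and 37.4% of adult nuclei. The start of Cpt2 was open in 25.2% and 22.1% and then in 22.1%, 12.0% and 28.9%. That of Acadvl, which takes the longest chains, was open in 14.6% and 13.6% and then in 13.7%, 7.69% and 17.9%. In each of these genes the groups overlapped and the PCT share did not separate the ages. The shared start of Hadha and Hadhb, a single peak between 2 genes that run in opposite directions, was open in 15.5% and 18.9% of P0 nuclei and in 15.0%, 10.8% and 22.1% of adult nuclei.

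Cpt1a and Ehhadh each had a start with a wide gap between cell types, and Ppargc1a had its highest shares outside the proximal tubule. Cpt1a has 2 start-site peaks. The upstream one, at chr19:3322387-3323674, was open in PCT in 20.5% and 17.4% of P0 nuclei and in 17.5%, 9.31% and 22.3% of adult nuclei, and its mean proximal share was no more than 1.23 times the mean of the other 11 clusters at either age. The downstream one, at chr19:3333164-3334755, was open in PCT in 32.4% and 29.4% and then in 27.0%, 25.0% and 40.8% of nuclei, but in endothelial cells in 0.84% and 1.70% and then in 3.17%, 0.56% and 1.86%. The ages overlapped in PCT, while no endothelial sample came near the lowest PCT sample.

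The start of Ehhadh was open in PCT in 33.3% and 28.9% of P0 nuclei and in 26.8%, 20.9% and 36.4% of adult nuclei, and in the loop of Henle in 9.92% and 11.7% and then in 6.35%, 5.18% and 5.52%. Its adult loop shares all lay below its P0 shares, but adult loop nuclei were shallower, and thinned to 1000 open peaks the groups overlapped, with 1.48% and 1.44% and then 1.04%, 1.62% and 1.03%. The start of Ppargc1a was open in intercalated cells, which secrete acid or base, in 40.0% and 33.9% of P0 nuclei and in 26.6%, 20.4% and 36.7% of adult nuclei, in the distal convoluted tubule in 35.3% and 33.3% and then in 30.7%, 20.2% and 43.5%, and in PCT in 24.1% and 16.5% and then in 24.9%, 19.2% and 35.6%. By mean share, PCT ranked behind 6 clusters at P0 and behind 4 in the adult for this peak, and immune cells were last at both ages with 0% to 6.93%, where 0 of 57 nuclei in P0 sample 2 allows up to 5.26% and 0 of 45 in adult sample 1 up to 6.67% by counting error; neighbors in the order overlapped among their samples.

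A share of nuclei rises with the number of peaks found per nucleus, which was high in PST, with medians of 8547.5 and 10199 at P0 and 5398.5 to 12173 in the adult. The mean proximal share was above the mean of the other 11 clusters in all 5 samples for 10 of the 11 start-site peaks, the exception being the upstream peak of Cpt1a at 0.99 times in adult sample 2. When each nucleus was thinned to 1000 open peaks, leaving out 794 nuclei with fewer, this held for 6 of 11, and likewise for 6 when CPM were used. Thinned, the surplus at the start of Acadm fell from 1.5 to 1.88 times over the 5 samples to 1.08 to 1.45 times, and that of the Hadha and Hadhb start turned to 0.74 to 1.02 times. The downstream Cpt1a start kept 1.90 to 3.97 times and Ehhadh 2.04 to 4.81 times. Internal starts of Acadm and Hadha stood at 5.15 to 13.4 and 7.74 to 55.4 times when thinned. By CPM these were 5.32 to 13.4 and 4.56 to 25.0 times. The Hadha ratios rest on few open nuclei in the other clusters, whose mean share was 0.479% at P0. Adult sample 2 gave the highest of them. There the peak was open in 0 of 1042 loop and 0 of 712 endothelial nuclei, which allows up to 0.288% and 0.421% by counting error.

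Some peaks were open mainly in the proximal tubule. The rule took the mean of the PCT and PST shares. Of 27 member peaks where that mean was at least 5% at both ages, 8 (29.6%) had it at least 4 times the mean of the other 11 clusters at both ages. Among all peaks the same rule took 8520 of 28529, which is 29.9%, so the members held no more such peaks than the rest of the genome. The rule used the shares themselves, which are given as a description. The nearest to the limit on its inside was a peak in Ehhadh, with 4.92 times at P0, and on its outside a peak in Ppargc1a at chr5:51545250-51546153, with 6.99 times at P0 and 3.96 times in the adult.

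The intronic Acadl peak at chr1:66831887-66833331, 25000 bp from the nearest transcript start, was the most widely open of the 8. It was open in PCT in 34.7% and 32.0% of P0 nuclei and in 34.4%, 20.1% and 43.7% of adult nuclei, and in PST in 47.0% and 42.0% and then in 41.0%, 27.4% and 57.8%. In the loop of Henle the shares were 12.1% and 15.5% at P0 and 7.36%, 4.61% and 5.19% in the adult. The proximal clusters stood 6.45 times above the others at P0 and 7.13 times in the adult, and no loop sample reached the lowest PCT sample. Its peak was thus open more often in PCT than the start of the same gene, in all 5 samples.

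The intronic Ppargc1a peak at chr5:51527647-51528998 was open in PCT in 23.8% and 18.3% of P0 nuclei and in 26.4%, 18.6% and 31.5% of adult nuclei, as often as the start of the gene or nearly so. Averaged over PCT and PST, it stood at 10.1 times the other clusters at P0 and 5.76 times in the adult. In stroma 1 it was open in 0.29% and 0.41% of P0 nuclei and in 6.67%, 2.80% and 9.90% of adult nuclei, without overlap. A sum of 6 mature PCT genes also moved there, from 138 and 159 CPM at P0 to 500, 215 and 367 in the adult, and its part in the stroma 1 value was not tested.

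In the enzymes, the intronic Cpt2 peak at chr4:107922084-107922522 was open in PCT in 21.9% and 17.2% of P0 nuclei and in 21.1%, 11.5% and 20.8% of adult nuclei. Averaged over PCT and PST, it stood at 6.43 times the other clusters at P0 and 5.43 times in the adult. The Acadm peak at chr3:153937550-153938513, at the start of a retained-intron transcript, was open in PCT in 13.5% and 11.8% and then in 5.35%, 5.49% and 7.83%, and in PST in 14.5% and 25.0% and then in 15.0%, 11.3% and 30.4%. Its PCT groups did not overlap, while its PST groups did. Averaged over PCT and PST, it stood at 14.3 times the others at P0 and 10.6 times in the adult. By CPM this was 13.4 and 11.4 times in the P0 samples and 5.32, 6.19 and 7.02 times in the adult samples.

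Of the 2 such peaks in Hadha, the one at chr5:30120139-30120682, at the start of a processed transcript, was open in PCT in 8.04% and 7.54% of P0 nuclei and in 9.03%, 10.3% and 13.2% of adult nuclei, and the one at chr5:30119267-30119763 in 10.4% and 7.36% and then in 6.25%, 8.30% and 8.14%. Of the 2 in Ehhadh, the one at chr16:21778802-21779668 was the most open in adult PST, with 11.3%, 16.6% and 37.0% against 8.43% and 7.14% at P0, and the one at chr16:21781399-21781823 was open there in 9.02%, 9.44% and 16.2% against 16.9% and 17.9%. In the first the adult PST samples all stood above the P0 samples and in the second all below them. Scaled for depth, the second changed in PST by -0.36 ± 0.30 (log2, SE) with an adjusted p of 0.478 by edgeR and was not called.

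The 6 proximal peaks away from starts had the base composition of the members' other peaks away from starts. The central 300 bases of the 9 start-site peaks outside the group had a median GC content of 62.0% with 15 CpG sites, those of the 2 start-site peaks in it 52.17% with 7.5, and those of the 6 others in it 45.33% with 3, against 44.67% and 3 in the 70 member peaks that were neither and 46.67% and 3 over all peaks. The lowest GC among these 9 starts was at those of Ehhadh, with 44.67% and 3, and Ppargc1a, with 44.67% and 9. The upstream start of Cpt1a followed, with 45.0% and 8.

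**Figure D2:**
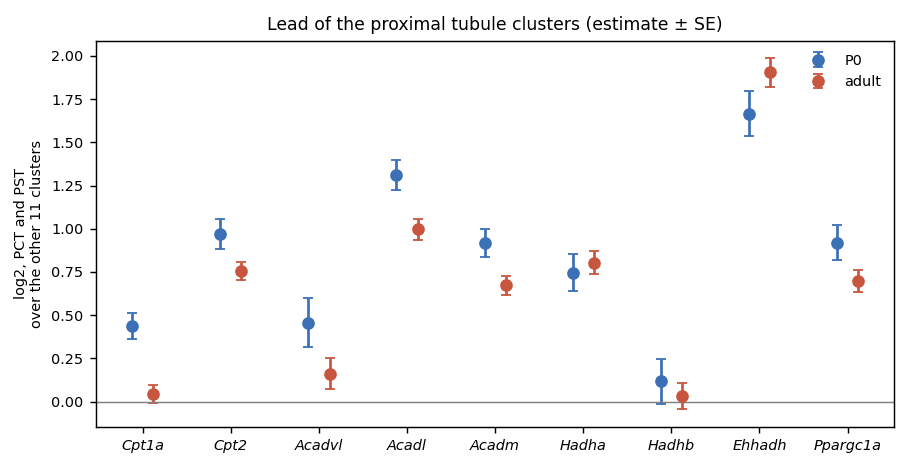
Difference of PCT and PST from the other 11 clusters in open calls over each gene (log2, estimate ± SE from edgeR), at P0 (blue, 2 samples) and in the adult (red, 3 samples). Ehhadh has the largest lead at both ages and Hadhb the smallest, and the lead of Cpt1a falls from 0.44 at P0 to 0.04 in the adult.

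Summed over each gene, the proximal tubule led the other clusters in most members. The clusters were found on the same open chromatin, so this is a ranking and its p-values are no independent test of cell type. By edgeR at an adjusted p under 0.05, 8 of 9 genes led at P0, where 25.3% of all 27681 genes tested did, and 6 of 9 in the adult, where 35.8% did. The largest leads were those of Ehhadh, 1.67 (log2) at P0 and 1.90 in the adult, and Acadl, 1.31 and 1.00. Cpt2 led by 0.97 and 0.76, Acadm by 0.92 and 0.67, Ppargc1a by 0.92 and 0.70, and Hadha by 0.75 and 0.80. Cpt1a led by 0.44 and 0.04 and Acadvl by 0.46 and 0.16, leads that were called at P0 alone. Hadhb, at 0.12 and 0.03, was the member without a lead at either age, although it shares its start with Hadha.

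The lead itself fell with age in 2 genes, where 9.07% of all genes had a falling lead. That of Cpt1a fell by 0.39 ± 0.09 (SE), with an adjusted p of 0.00076 by edgeR, and that of Acadl by 0.32 ± 0.11, with 0.0246. Leaving out P0 sample 2 left 0 of these 2 calls, and P0 sample 1 or adult sample 3 left 1. Acadm, with -0.25 and 0.0537, and Cpt2, with -0.21 and 0.129, missed the threshold. Over single peaks, 24 of 48 tested led at P0 against 23.3% of all peaks and 31 of 48 in the adult against 41.6%. The change of lead of single peaks depended on the scaling: under TMM 6 member peaks, all of them start sites, gained and 4 lost, whereas under DESeq2's size factors 0 gained and 11 lost. That scaling moved the median of all peaks by -0.527, and the share of all called peaks that gained from 83.1% to 21.9%, so no direction is given for them. The same scaling moved the median of all peaks by 0.228 in the lead at P0 and by -0.292 in the adult lead. The share of all called peaks with a positive lead went from 70.9% to 81.5% and from 87.1% to 76.5%.

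The comparison of P0 with adult within each cluster asks how the chromatin of these genes matured. Over the 13 clusters, 284 tests of member peaks by edgeR's quasi-likelihood test called 71 higher in the adult and 8 higher at P0, where 16% and 18% of all peak tests were called in the same directions. The 71 and 8 became 30 and 3 without P0 sample 1, 32 and 3 without P0 sample 2, 86 and 13 without adult sample 1 and 107 and 9 without adult sample 2. On the gene level 22 of 111 tests were higher in the adult and 0 at P0, against 11.1% and 14.2% over all genes. The 22 became 12 and 11 without P0 samples 1 and 2, and 34 without adult sample 2. At an unadjusted p under 0.05, edgeR had 38 higher in the adult and 0 at P0, and DESeq2 called 18 and 0. The same nuclei count toward many of these tests, and a gene's count holds its peaks. Of the 109 tests of start-site peaks 15 were higher in the adult and 1 at P0, and of the 175 tests of other peaks 56 and 7.

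**Figure D3:**
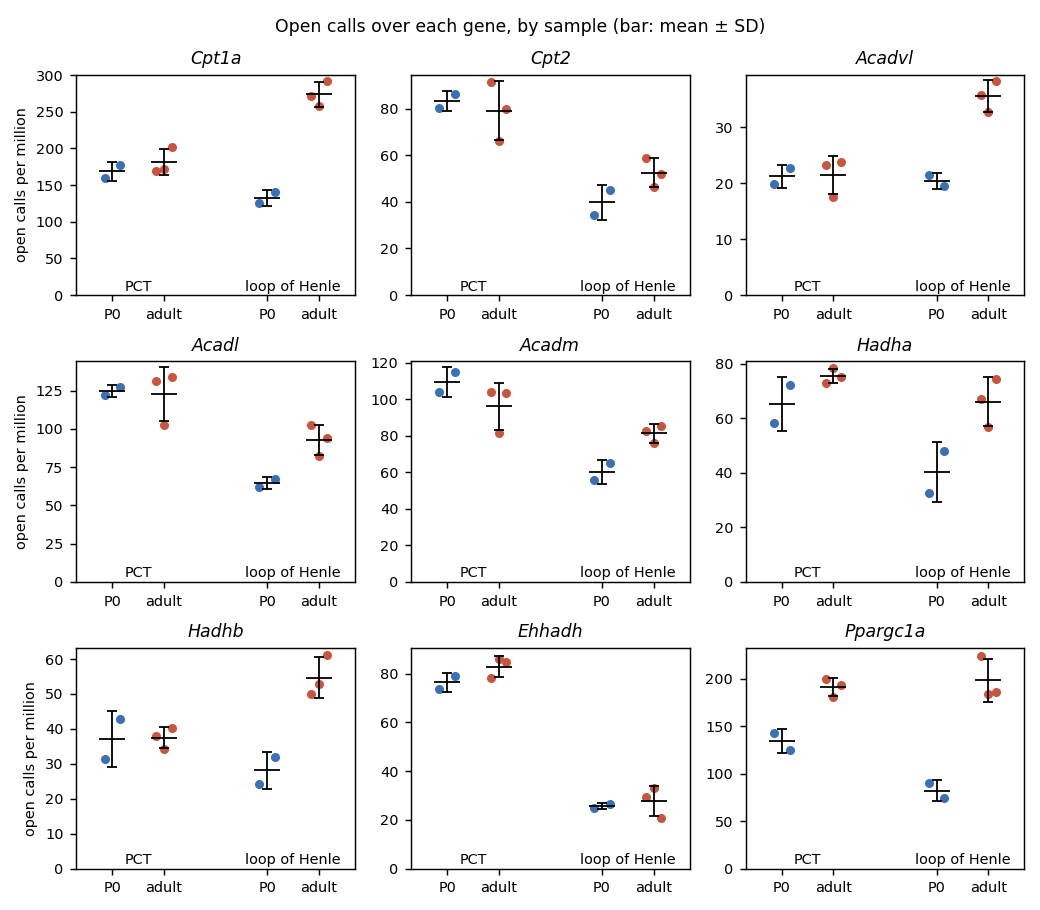
CPM of open calls over each of the 9 genes in each sample (blue P0, red adult; bar, mean ± SD) in PCT and in the loop of Henle. Between P0 and adult, Ppargc1a and Hadha separate in PCT, whereas in the loop of Henle all genes but Ehhadh have every adult sample above both P0 samples.

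In PCT, 1 of 9 members was called. Ppargc1a stood at 143 and 125 CPM at P0 and at 200, 181 and 193 in the adult, a rise of 0.65 ± 0.11 (log2, SE) with an adjusted p of 0.00273 by edgeR, where 12.8% of all genes rose. Its adult samples all lay above both P0 samples. Hadha changed by 0.35 ± 0.14 with an adjusted p of 0.0779, Ehhadh by 0.26 with 0.139 and Cpt1a by 0.25 with 0.165, and the remaining 5 stood between -0.05 (Acadm) and 0.17 (Hadhb). In PST, 1 of 9 was called against 5.44% of all genes: Ehhadh went from 63.0 and 82.5 CPM to 91.4, 109 and 124, or 0.66 ± 0.19 with an adjusted p of 0.0458 by edgeR and 0.0578 by DESeq2. The Ppargc1a call was lost without P0 sample 2, with 0.56 and an adjusted p of 0.0733, and that of Ehhadh without any 1 of the samples except adult sample 1, with 0.53 to 0.88. Beside these, the mature PCT list, genes of transport in the adult tubule, went in PCT from 714 and 721 CPM to 1096, 842 and 1097, with 3 of 6 higher. Podocyte markers there went from 144 and 133 to 90.1, 84.6 and 88.4, with 3 of 5 lower, and endothelial markers from 92.6 and 91.8 to 48.7, 57.7 and 45.5, with 2 of 5 lower. Stroma markers went in PCT from 69.5 and 75.9 to 45.2, 39.9 and 39.7, with 2 of 5 tested lower, and in PST from 115 and 107 to 62.2, 56.5 and 65.5, with 1 of 3 tested lower. Of 6 nephron progenitor markers, 1 was higher and 2 lower in PCT. In PST the loop markers went from 82.4 and 78.5 to 172, 124 and 131, with 1 of 3 tested higher, and the immune markers from 96.9 and 81.5 to 160, 142 and 129, with 1 of 3 tested higher. Their part in the members' values was not tested.

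Within the gene sums, single PCT peaks changed in both directions. Of 87 member peaks 60 had enough calls to be tested, and 12 rose against 16.3% of all peaks and 5 fell against 17.6%. The 12 became 4 without either P0 sample, 18 without adult sample 2 and 8 without adult sample 3, and the 5 became 2 without either P0 sample and 3 without adult sample 1. The largest fall was in Acadm, at chr3:153936043-153936400 over an exon, open in 9.69% and 7.54% of P0 nuclei and in 1.1%, 0.488% and 0.522% of adult nuclei, a change of -3.26 ± 0.38 with an adjusted p of 8.8e-05 by edgeR. The next was in Cpt1a, at chr19:3321670-3322113, 221 bp upstream of its first start. It was open in 12.2% and 12.2% of P0 nuclei and in 1.68%, 2.28% and 2.79% of adult nuclei, a change of -2.04 ± 0.28 with 0.00024. In both, the groups stood far apart. In Acadl, 2 further peaks fell. That at chr1:66846011-66846418, open in under 1% of nuclei in every sample, went from 0.914% and 0.898% to 0.258%, 0.163% and 0.261%, or -1.61 ± 0.56 with an adjusted p of 0.0413 by edgeR and 0.246 by DESeq2. The intronic one at chr1:66839966-66840462 went from 11% and 7.18% to 4.38%, 2.68% and 3.39%, or -0.98 ± 0.28. The fifth was the internal start of Acadm named above, at -0.64, with an adjusted p of 0.0401 by edgeR and 0.108 by DESeq2.

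The peaks that rose in PCT lay mainly in Ppargc1a and Cpt1a. In Ppargc1a, the peak at chr5:51523643-51524104 went from 0.731% and 0.539% to 4.13%, 1.55% and 4.79% of nuclei, or 2.76, and 4 further intronic peaks rose by 0.65 to 2.23 along with the start-site peak, by 0.76 ± 0.21. In Cpt1a, the intronic peak at chr19:3326499-3327039 went from 3.47% and 2.15% to 5.09%, 6.99% and 14.3%, or 2.01, and 3 further intronic peaks rose by 0.87 to 2.06. DESeq2 called 9 of the 12 rises in PCT, without the Cpt1a peaks at chr19:3324056 and chr19:3331779, with adjusted p of 0.0567 and 0.0654, and the Ppargc1a peak at chr5:51537258, with 0.089. All adult samples lay above both P0 samples in the Ppargc1a peak at chr5:51523643-51524104 and the Cpt1a peak at chr19:3326499-3327039. Cpt1a thus held both a fall just upstream of its first start and rises in the introns after it, while its sum over the gene was not called. The other 2 PCT peaks that rose were the Hadha peak at chr5:30120139-30120682, by 0.87 ± 0.24, and the Ehhadh peak at chr16:21778802-21779668, by 1.09 ± 0.33. The latter was also the only member peak called in PST, by 1.68 ± 0.36 with an adjusted p of 0.0086. There 1 of 33 tested rose against 9.04% of all peaks and 0 fell against 6.99%. Beside the 0, edgeR had 1 at an unadjusted p under 0.05 and DESeq2 called 0.

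**Figure D4:**
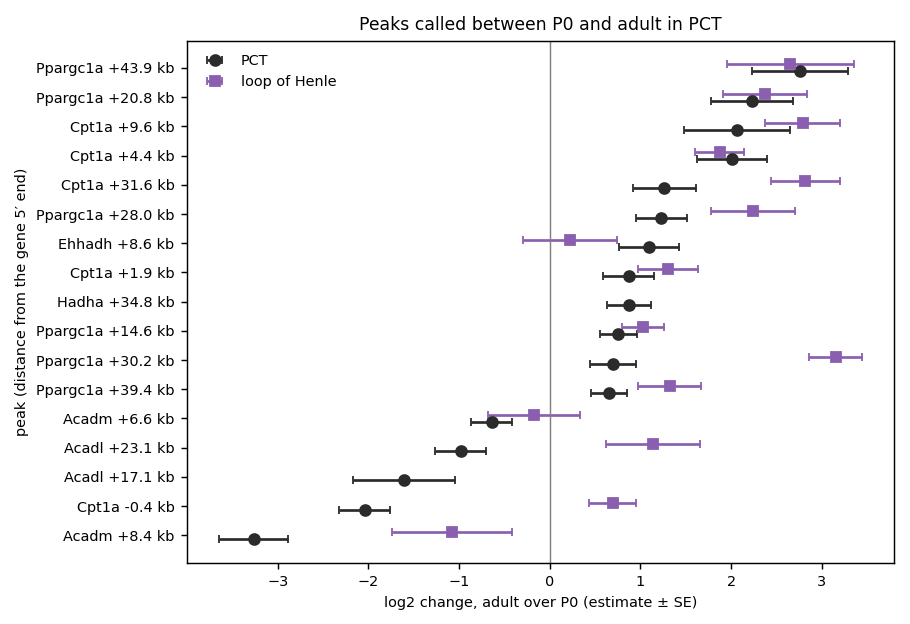
Change from P0 to adult of the 17 member peaks called in PCT (log2, estimate ± SE from edgeR), in PCT (black circles) and, where tested, in the loop of Henle (purple squares); names give the gene and the distance from its 5′ end. The peaks that rose in PCT stand at or above 0 in the loop as well, while the Cpt1a peak at -0.4 kb and the Acadl peak at +23.1 kb fall in PCT and stand above 0 in the loop.

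The loop of Henle, whose thick limb reabsorbs salt, was where the members rose together. By edgeR, 8 of 9 genes were higher in the adult, where 22.8% of all genes were. Cpt1a went from 125 and 140 CPM to 271, 258 and 292, or 1.11 ± 0.12 (log2, SE) with an adjusted p of 5.99e-05. Ppargc1a went from 89.9 and 74.2 to 225, 185 and 186, or 1.33 ± 0.14 with 5.3e-05. In both genes every adult sample stood well above the P0 samples.

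The enzymes that act inside the mitochondrion rose by 0.46 to 1.04. Acadvl went from 21.5 and 19.4 CPM to 35.8, 32.8 and 38.3, or 0.88 ± 0.18 with an adjusted p of 0.00215. Hadhb went from 24.3 and 32.0 to 49.9, 52.8 and 61.2, or 1.04 ± 0.18 with 0.000741, and Hadha from 32.6 and 48.0 to 67.2, 56.7 and 74.6, or 0.79 ± 0.20 with 0.00733. Acadl rose by 0.58 ± 0.15, Acadm by 0.50 ± 0.16 and Cpt2 by 0.46 ± 0.17, with adjusted p of 0.00786, 0.0199 and 0.0446 by edgeR, and DESeq2 lost Cpt2, with 0.0708. For Cpt2, 45.1 in P0 sample 2 stood just under 46.5 in adult sample 2, and in Acadm the change without its 2 start-site peaks was -0.20, with an adjusted p of 0.736. Ehhadh, the peroxisomal member, was the one gene not called, with 25.0 and 26.6 at P0 and 29.4, 33.1 and 21 in the adult, or 0.15 ± 0.22 with an adjusted p of 0.570.

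Leaving out a P0 sample left 4 of the 8 calls, Cpt1a, Hadhb and Ppargc1a with Acadvl without P0 sample 1 and with Hadha without P0 sample 2. The shares also have to be read with depth, because loop nuclei had median numbers of open peaks of 6567 and 7430 at P0 and 3084, 2496 and 4477 in the adult. Thinned to 1000 open peaks, the start of Acadm was open in 5.04% and 5.75% of P0 and in 8.13%, 7.01% and 8.36% of adult loop nuclei, and that of Ppargc1a in 3.72% and 3.15% and then in 7.06%, 5.59% and 6.25%. Unthinned, the same starts stood at 33.7% and 43.6% and then at 29.2%, 19.2% and 39.8% for Acadm, and at 24.4% and 23.6% and then at 25.4%, 14.5% and 29.7% for Ppargc1a, with overlapping groups.

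Other cell type markers moved with these values. Genes marking the loop of Henle summed to 160 and 185 CPM in that cluster at P0 and to 676, 656 and 794 in the adult. In adult and P0 PCT their sum stayed between 60.6 and 71.1, though 1 of 4 was called higher there. The mature PCT list in the loop cluster went from 179 and 166 to 201, 65.5 and 93.8, with 0 of 6 genes called higher and 2 lower. Of the nephron progenitor markers 5 of 6 fell there, of the stroma markers 6 of 6, of the endothelial markers 3 of 5 and of the podocyte markers 4 of 5. Their part in the members' values was not tested.

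**Figure D5:**
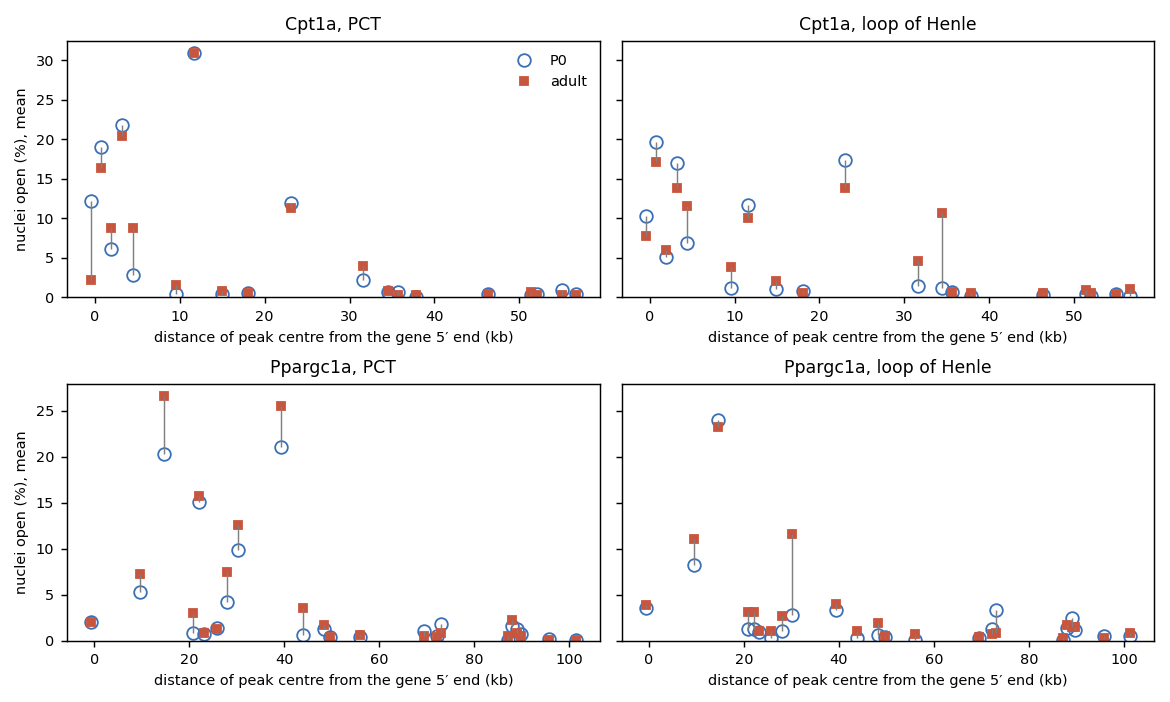
Mean share of nuclei with a peak open (percent) against the distance of the peak's center from the gene's 5′ end (kb), for all peaks of Cpt1a (top) and Ppargc1a (bottom) in PCT (left) and in the loop of Henle (right), at P0 (open circles, 2 samples) and in the adult (filled squares, 3 samples). In the loop 1 peak far inside each gene rises the most, at 34.5 kb in Cpt1a and at 30.2 kb in Ppargc1a, and the Cpt1a one stays near 0 in PCT.

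Over single peaks in the loop, 35 of 53 member peaks tested rose, where 24.4% of all peaks did, and 1 fell, where 29.9% did. The 35 became 19 without P0 sample 1 and 22 without P0 sample 2, and DESeq2 called 30 higher and 0 lower. The median change was 1.16 (log2) over the members' peaks and -0.11 over all peaks. The largest rise was in Cpt1a, at the exonic peak chr19:3356488-3357156 whose sequence is given above, open in 1.1% and 1.38% of P0 nuclei and in 10.2%, 8.64% and 13.3% of adult nuclei, or 4.21 ± 0.34 with an adjusted p of 5.6e-10 by edgeR. In PCT it was open in under 1% of nuclei of every sample, 0.914% and 0.539% at P0 and 0.774%, 0.569% and 0.957% in the adult. It rose in neighboring distal segments as well, in the distal convoluted tubule from 3.92% and 0% (0 of 57 nuclei, which allows up to 5.26%) to 16.8%, 13.7% and 23.5%, or 3.76 with an adjusted p of 0.00198 by edgeR and 0.0534 by DESeq2, and in the connecting tubule from 0.741% and 1.98% to 14.5%, 8.50% and 17.7%, or 3.6. Its groups stood apart in all 3 distal clusters. At P0 it had too few open calls to pass the filter in any of them. Its adult samples alone brought it into the tests, and its rises and adjusted p are given as a description. In the connecting tubule the summed loop markers also went from 74.0 and 95.7 CPM to 139, 163 and 156, and their part in this rise was not tested.

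In Ppargc1a the intronic peak at chr5:51537258-51537892 went in the loop from 2.20% and 3.37% to 12.9%, 8.73% and 13% of nuclei, or 3.15 ± 0.29, and rose by 2.48 in the connecting tubule and 1.62 in principal cells, the cells that take up sodium and water in the collecting duct. In Cpt2 the proximal peak at chr4:107922084-107922522 went from 3.31% and 4.75% to 6.60%, 3.84% and 6.19%, with overlapping shares, and rose by 1.54 ± 0.31 once scaled for depth. The fall was that of the proximal Hadha peak at chr5:30119267-30119763, with 1.57% and 5.21% and then 0.761%, 0.288% and 0.994%, or -1.23, with an adjusted p of 0.047 by edgeR and 0.218 by DESeq2. Of the start-site peaks, 7 of 10 tested rose and 0 fell, with 0 falling at an unadjusted p under 0.05 in edgeR and 0 by DESeq2.

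Fitted together, with the difference between the clusters as the test, 7 of 9 genes rose more in the loop of Henle than in PCT, where 15.6% of all genes did. The comparison was added after the data were seen, so its p-values rank the genes and are no independent test. The difference was 0.84 ± 0.11 (log2, SE) in Cpt1a with an adjusted p of 0.000135 by edgeR, 0.86 ± 0.16 in Hadhb with 0.00128 and 0.65 ± 0.12 in Ppargc1a with 0.00152. It was 0.69 in Acadvl, 0.53 in Acadm, 0.44 in Acadl and 0.38 in Cpt2. Hadha, with 0.42 ± 0.17 and 0.0692, and Ehhadh, with -0.17 ± 0.20 and 0.522, were not called. The median over all genes was -0.06.

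Of 57 member peaks in that test, 15 had a more positive change in the loop, where 8.67% of all peaks did, and 2 in PCT, where 10.8% did. The 15 include the exonic Acadm peak at chr3:153936043-153936400, with -1.07 in the loop, not called, against -3.26 in PCT. The Cpt1a peak at chr19:3356488-3357156 differed by 3.66, and the peak just upstream of the first Cpt1a start, which fell in PCT and stood at 0.69 ± 0.26 in the loop with an adjusted p of 0.0237 by edgeR and 0.125 by DESeq2, by 2.63. The 2 that went the other way were among the peaks open mainly in the proximal tubule, the Acadl peak at chr1:66831887-66833331 by -0.60 and the Hadha peak at chr5:30119267-30119763 by -1.49. Neither was called in PCT, at 0.31 and 0.20, and the Hadha peak fell in the loop. These counts varied with the sample left out, from 2 to 8 genes and from 4 to 17 peaks higher in the loop; without P0 sample 1 it was 3 genes and 4 peaks and without P0 sample 2 it was 2 and 6. DESeq2 called 4 genes and 7 peaks higher in the loop and 0 peaks in PCT.

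In the other clusters, Ppargc1a and Cpt1a made up most calls. Ppargc1a rose in nephron progenitors by 0.91, in the distal convoluted tubule by 0.70, in the connecting tubule by 1.07, in principal cells by 0.81 and in stroma 1 by 1.34. Cpt1a rose in the connecting tubule by 0.98, in principal cells by 0.59, in stroma 1 by 1.13 and in stroma 2 by 0.57. The remaining calls were Acadl in nephron progenitors at 1.11 and in stroma 1 at 0.69, and Cpt2 in stroma 1 at 0.82. In stroma 1 DESeq2 called 3 of the 4, without Acadl, with an adjusted p of 0.0736.

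These calls were read against the background of each cluster. In nephron progenitors 2 of 7 tested genes rose against 18.5% of all genes, in the distal convoluted tubule 1 of 9 against 1.38% (Ppargc1a, with an adjusted p of 0.0299 by edgeR and 0.107 by DESeq2), in the connecting tubule 2 of 9 against 9.74%, in principal cells 2 of 9 against 12.4%, in stroma 1 4 of 8 against 14% and in stroma 2 1 of 9 against 16.6%. Adult nuclei in the cluster named nephron progenitors numbered 52 to 90 a sample, and their progenitor markers, at 60.5, 101 and 97.7 CPM against 280 and 277 at P0, stood below the 133 to 150 of PCT, so the name goes against the data in the adult. There the loop of Henle markers, 4 of 4 of them called higher, went from 73.5 and 72.4 to 246, 174 and 198 CPM. In stroma 1 the stroma markers, 6 of 6 called lower, went from 395 and 413 to 167, 235 and 244 CPM, while 3 of 4 tested mature PCT markers and 2 of 3 tested loop markers were called higher. Endothelial markers there went from 219 and 210 to 265, 370 and 306 CPM, with 1 of 4 tested called higher and 0 lower. Loop markers were also called higher in the connecting tubule (1 of 4), in principal cells (2 of 4) and in the distal convoluted tubule and stroma 2 (1 of 3 each), and mature PCT markers went both ways in principal cells (2 of 6 higher and 1 lower) and stroma 2 (2 of 4 higher and 1 lower). Endothelial markers were called lower in the connecting tubule (4 of 4 tested) and principal cells (3 of 4). Podocyte markers were lower in both (2 of 4 each), with 1 higher in the connecting tubule. The part of these markers in the members' calls was not tested. In endothelial cells, podocytes, intercalated cells and immune cells edgeR called 0 of 33 tests of member genes, where 5.32% of all gene tests were called higher in the adult and 6.11% at P0, with 3 at an unadjusted p under 0.05 and 0 called by DESeq2. Of 18 member peaks tested in endothelial cells 1 rose, where 14.8% of all peaks did, and 2 fell, where 16.6% did. The rise was in Cpt1a at chr19:3344872-3345911, by 2.05 with an adjusted p of 0.0218 by edgeR and 0.055 by DESeq2. The falls were in Ppargc1a at chr5:51544213-51544901 from 15.9% and 8.50% to 0.452%, 0.843% and 1.39%, or -2.30, and in Hadhb at chr5:30172217-30172786, by -1.54 with 0.0237 by edgeR and 0.233 by DESeq2.

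The other genes of the pathway were followed as named lists, which were also chosen with earlier results of these data known. Their counts in PCT stand against 12.8% of all genes that rose there and 15.6% that fell. In PCT, 6 of 17 genes for fatty acid uptake and activation rose and 0 fell, led by the medium-chain acyl-CoA synthetases Acsm2 at 1.33, Acsm5 at 0.98 and Acsm1 at 0.77, and by the binding protein Fabp1 at 2.47. Fabp1 rests on 1 peak with few calls, at 0.74 and 1.20 CPM at P0 and 5.26, 3.90 and 5.32 in the adult. Of the regulators, 6 of 21 rose and 1 fell. Ppara, the receptor that drives fatty acid oxidation genes, went from 205 ± 10.7 (SD, n = 2) to 357 ± 43.9 (n = 3) CPM, or 0.94, Prkaa2, a catalytic subunit of AMPK, rose by 0.88, and the nuclear receptors Esrrg and Rxra by 0.53 and 0.54. Of the peroxisomal genes, 6 of 15 rose and 0 fell, among them Acox3 at 0.68, Scp2 at 0.54, Acox2 at 0.48 and Acaa1b at 0.47.

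Of 18 further mitochondrial genes, 3 rose in PCT, Decr1 at 0.69, Etfb at 0.61 and Eci1 at 0.50, while Acaa2, the thiolase of the last step, missed the threshold at 0.44 with an adjusted p of 0.0535 by edgeR. Of the carnitine genes 1 of 6 rose, the carnitine transporter Slc22a5 at 0.71, and Crat, Slc25a20 and Cpt1c were not called. Of 11 fatty acid synthesis genes, taken as a contrast, 4 rose, Me1 at 0.75, Elovl5 at 0.65, Acly at 0.51 and Acaca at 0.48, and 1 fell. In the 4 lists with 0 falling, edgeR had 1 gene of 56 falling at an unadjusted p under 0.05, and DESeq2 called 0.

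In the loop of Henle, where 22.8% of all genes rose and 29.3% fell, 6 of 18 mitochondrial genes rose and 0 fell, 6 of 16 uptake genes and 0, 9 of 21 regulators and 0, 4 of 15 peroxisomal genes and 1, 3 of 6 carnitine genes and 1, and 0 of 11 synthesis genes and 1. Cpt1b, the muscle form of the carnitine transferase, rose by 2.16 and Cpt1c by contrast changed by -0.88. Among the regulators, Esrrb and Esrra, receptors of the ERR family, rose by 1.33 and 1.13 and Ppargc1b and Pprc1, relatives of Ppargc1a, by 0.45 and 0.43. For Esrrg, also of the ERR family, the change in the loop differed from that in PCT by -0.44 (log2). The synthesis gene called was Elovl5, at -0.58, which rose in PCT. In the 3 lists with 0 falling, edgeR had 1 gene of 55 falling at an unadjusted p under 0.05 and DESeq2 called 0, and in the synthesis list 0 rose by either measure.

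Across the 65 sums of 5 samples and 13 clusters, centered within each sample, each member was set against the mean of the other 8. Acadl correlated the most with its fellows, at Pearson r = 0.776, followed by Hadha at 0.752, Acadm at 0.684, Cpt1a at 0.588, Ppargc1a at 0.578, Cpt2 at 0.50, Acadvl at 0.409, Ehhadh at 0.367 and Hadhb at 0.145. The profile of the 9 genes was most like that of 1810032O08Rik at r = 0.908, 4833439L19Rik at 0.890, Bphl at 0.884, AC115631.1 and Rcor3 at 0.88 each, Coq8a at 0.879, Tmem8 at 0.866, D630024D03Rik at 0.856, Rufy3 at 0.854 and Rabggta at 0.853, out of 27672 genes. Sums of the same library and of sparse clusters share their depth, so these values are a description.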

How the data were processed

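The members, gene lists and marker lists were chosen with earlier results of these data known. Per the methods, the authors aligned reads to mm10 with Cell Ranger ATAC 1.1.0, clustered nuclei with SnapATAC and Harmony, called peaks with MACS2 on the pooled nuclei of each cell type over all ages, and merged them. The deposited counts of open calls come from that nucleus-by-peak matrix, which the authors binarized and did not scale for depth. Calling peaks on pooled nuclei favors abundant cell types and ages. The single-cell RNA-seq files were not used, and a caller of doublets was neither stated nor run here.

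Peaks were assigned to genes with GENCODE M21 (the study used another release). Open calls were summed per sample and cluster and fitted in R 4.3.3 with edgeR 4.0.16 (TMM scaling and the quasi-likelihood F test on features that passed filterByExpr at 10 counts in a sum and 15 in all, with p-values adjusted by Benjamini-Hochberg over all peaks or genes of a fit and a threshold of 0.05). P0 and adult were compared within each cluster without a block. The proximal lead, and the loop of Henle against PCT, were fitted over clusters with the sample as a block. The latter, the rule on proximal peaks and the HNF4 sequence were added after the data were seen. An exact permutation test of 2 against 3 samples has 10 arrangements, cannot go below 0.1 and was not used. Sums and plots were made in Python 3.11.15 (pandas 2.3.3, numpy 2.4.6, matplotlib 3.10.9, scipy 1.17.1). Shares and CPM carry counting error beside the spread between samples.

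The named genes were all members, their start-site peaks, peaks called in PCT, up to 4 genes of each list with the smallest adjusted p in PCT, and the 10 genes of most similar profile; those named for other clusters were chosen after their values were seen. A further gene list is not reported here. Tested on simulated data, the PCT peak fit recovered 14.0% of 2-fold and 80.0% of 4-fold changes, and the loop of Henle against PCT fit on genes 69.1% and 90.8%. In the PCT simulation 100 of 108166 peaks were changed by each fold, whereas 16.3% rose and 17.6% fell in the real fit. With so few changes the adjusted p is stricter, so 14.0% and 80.0% do not give the recovery of the real fit. In the gene simulation 97 and 98 of 3860 genes were changed, whereas 4231 and 5125 of 27139 were called in the real fit. For the same reason 69.1% and 90.8% do not give its recovery. Alternatives were DESeq2 1.42.0, its size factors in edgeR, no filter, P56 as the only adult age with and without a block on the sample number, no block, other gene windows, thinning and leaving out each sample. Leaving out a P0 sample leaves 1 at P0, so the spread in such a fit comes from the adult samples alone. The calls kept or lost there are given as a description.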

Additional observations from a re-analysis of the deposited data

Results flagged for a closer look

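Each value here is the difference of 2 changes, given because the test of that difference passed in edgeR at an adjusted p under 0.05. None was chosen by the level itself, but the loop of Henle was set against PCT after the data were seen. The change from P0 to adult in the loop of Henle exceeded that in PCT by 0.84 (log2) in Cpt1a, 0.38 in Cpt2, 0.53 in Acadm, 0.44 in Acadl, 0.69 in Acadvl, 0.86 in Hadhb and 0.65 in Ppargc1a, all as sums over the gene. DESeq2 called 4 of the 9 genes. All 7 are positive, and the rises of Cpt1a and Hadhb differed the most.

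Among single peaks, named by their start on mm10, the same difference was -0.60 at the proximal Acadl peak 66831887, 1.41 at Acadl 66837374, 2.07 at Acadl 66839966 and 0.57 at the start of Acadl, 66862507. It was 0.69 at the start of Acadvl, 70014977, and 2.20 at the Acadm exon peak 153936043, where the calls in the adult were few in both clusters. In the carnitine transferases it was 2.63 at Cpt1a 3321670, 0.64 at the upstream Cpt1a start 3322387, 3.66 at the Cpt1a exon peak 3356488 and 1.24 at the intronic Cpt2 peak 107922084. In the trifunctional protein it was -1.49 at Hadha 30119267, 1.29 at Hadha 30152167, 0.65 at the shared start 30154644 and 2.82 at Hadhb 30172217. In Ppargc1a it was 2.35 at 51537258, 2.85 at 51541808 and 1.87 at 51545250. Only the Acadl and Hadha peaks named as proximal went toward PCT, and DESeq2 called 0 in that direction and 7 toward the loop.

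The lead of the proximal tubule over the other 11 clusters changed between P0 and adult by -0.39 in Cpt1a and by -0.32 in Acadl.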

How the results depend on the processing

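Settings were changed one at a time, except P56 alone with a block, and counts are of members called. For P0 against adult, the 8 peaks higher at P0 over all clusters became 4 with DESeq2, 13 with P56 as the only adult age and 22 with no filter. In PCT the 12 that rose became 23 with no filter, and the 5 that fell 3 with DESeq2, 3 with P56 alone and 2 with no filter. In PST the 1 that rose became 4 with P56 alone and 10 with no filter, and the 0 that fell 1 and 1. In the loop of Henle the 1 that fell became 0 with DESeq2 or no filter.

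The deposited names call each sample a batch, and the paper's methods number every sample as a batch of its own. Differences between ages are therefore also differences between batches, and the 2 cannot be told apart. The labels give P0 and P56 samples shared numbers and nothing else that pairs them. Over the 13 clusters, deviations of same-numbered samples correlated at -0.0114 to 0.223 (genes) and -0.122 to 0.171 (peaks). With P56 alone and the number as a replicate block, 14 peaks were higher at P0 over all clusters, 2 in the loop, 4 rose and 1 fell in PST, and 3 genes rose in PCT and 2 in PST. The lead, fitted with the sample as a block, gave 2 peaks that gained in place of 6 and 1 gene that lost in place of 2 with no replicate block.

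For genes, leaving out start-site peaks gave 2 falls over all clusters, 1 of them in PCT, with 2 rises in PCT and 0 in PST, and turned Acadm in the loop to -0.20. The gene body alone gave 2 rises in PCT, and DESeq2 0 in PST. The lead of peaks in the adult was called in 48 with no filter in place of 31, and negative in 8 with DESeq2 in place of 2. Its change was positive in 0 and negative in 14 (DESeq2) or 11 (size factors) in place of 6 and 4. For genes it was negative in 1 with no filter. The loop against PCT gave 7 peaks with DESeq2 and 7 with no filter in place of 15, 0, 1 and 0 toward PCT with DESeq2, size factors and no filter in place of 2, and 4 genes with DESeq2 in place of 7. Start-site peaks above the other clusters in all samples numbered 6 thinned and 6 by CPM in place of 10.

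Leaving out 1 sample gave 30 to 107 peaks higher in the adult over all clusters and 3 to 13 higher at P0, 4 to 18 and 2 to 4 in PCT, 0 to 4 and 0 to 1 in PST, and 19 to 36 and 0 to 1 in the loop. For genes it gave 11 to 34 over all clusters, with 12 and 11 without P0 samples 1 and 2 and 34 without adult sample 2, 0 to 1 in PCT and in PST, and 4 to 8 in the loop. Peaks led in 18 to 28 at P0 and 22 to 31 in the adult, with 2 negative, and the lead rose in 0 to 2 and fell in 2 to 8. Genes led in 7 to 8 and 6 to 7, with 0 to 2 falling leads. The loop against PCT gave 4 to 17 peaks, 0 to 2 toward PCT, and 2 to 8 genes, and 10 to 11 start-site peaks stood above the other clusters.

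Directions turned as follows; the cause was not tested. The change of lead was, with DESeq2 and with its size factors, -0.11 and -0.11 at the start of Acadl, -0.0835 and -0.0825 at that of Acadm, -0.0455 and -0.0419 at that of Hadha, and -0.0802 and -0.0832 at that of Ppargc1a, which ran from -0.39 (without P0 sample 1) to 0.64 over the samples left out. The adult lead of the upstream Cpt1a start was -0.19 and -0.20, and -0.29 (without adult sample 3) to 0.28 over the samples left out. As log2 share ratios, thinned and by CPM, that start stood at -0.35 and -0.33, Hadha at -0.26 and -0.18 and Ppargc1a at -0.24 and -0.21. The Cpt1a peak 3321670 ran from -0.34 to 0.033 (without adult sample 1), and the Ppargc1a peak 51523643 from -0.21 and -0.082 (without adult samples 1 and 3) to 0.78. Over 28 fits of age within a cluster or of the loop of Henle against PCT, the size factors moved the median of all features by -0.06 to 0.055. In the fits of the proximal lead of peaks they moved it by 0.228 at P0, -0.292 in the adult and -0.527 for the difference.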
